A study of Mus musculus with 12 samples.

Results

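Integrins are the main adhesion receptors of macrophages, and 10 integrin subunit genes expressed by these cells are described here in macrophages grown from mouse bone marrow, with donor mice fed either normal food (ND) or high-fat food (HFD). The genes were chosen by name: *Itgam*, *Itgal*, *Itgax* and their partner *Itgb2*, *Itga4*, *Itga5*, *Itga6* and *Itgav* with their partner *Itgb1*, and *Itgb5*. All 10 were listed in the deposited table, among 13232 genes in all. Their selection applied no threshold to measured values.

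The mice were C57B6/J animals of wild-type genotype. Their whole marrow was grown with 20 ng/ml of the macrophage growth factor M-CSF, moved to serum-free medium on day 4, and kept at 1% oxygen for 1 h on day 7. The table holds 6 hypoxia libraries, 3 ND and 3 HFD, so all libraries share the hypoxia, the growth factor and the medium. The 6 normal-oxygen libraries of the series were not analysed here, and nothing below is a response to hypoxia. The labels do not say whether libraries of a diet came from separate mice, so p-values measure the spread between these libraries, which may be technical. The age of the mice and the length of feeding are not given in the sources used here.

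An integrin is a heterodimer of an alpha and a beta chain, both of which span the membrane. Talin and kindlin bind the beta tail and switch the dimer to its high-affinity form, and bound integrins then signal through FAK, Pyk2 and Src family kinases. The beta2 integrins, which share the CD18 chain made from *Itgb2*, belong to leukocytes. In macrophages CD11b/CD18, also called Mac-1 or complement receptor CR3, binds complement fragments, fibrinogen and ICAM-1. The beta1 integrins bind fibronectin, laminin and VCAM-1, and the alphav dimers bind vitronectin and take part in the uptake of dying cells.

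*Itgam* and *Itgax* lie side by side on chromosome 7, encode related alpha chains and share *Itgb2* as partner, yet their RNA differed in how it varied between the libraries. *Itga4* was the one member that passed as lower in HFD, in the fit without ND replicate 3 and in the fit with library weights, and in none of the others of the 16 fits run. The promoter windows of these 3 genes are therefore shown, as the 250 bases before the RefSeq start (build GRCm38.p6, gene strand, 5′ to 3′). Capitals mark GAGGAA or its reverse complement TTCCTC, the core bound by the myeloid factor PU.1. RefSeq promoter entries matched 7 of the 10 genes. *Itgal*, *Itgb2* and *Itga6* had none.
Itgam, chr7:128062390-128062639, plus strand: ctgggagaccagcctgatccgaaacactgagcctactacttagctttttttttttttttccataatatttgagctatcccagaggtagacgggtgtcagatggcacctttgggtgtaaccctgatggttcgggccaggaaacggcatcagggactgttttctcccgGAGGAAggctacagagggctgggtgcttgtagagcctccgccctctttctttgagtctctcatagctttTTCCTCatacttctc
Itgax, chr7:128129300-128129549, plus strand: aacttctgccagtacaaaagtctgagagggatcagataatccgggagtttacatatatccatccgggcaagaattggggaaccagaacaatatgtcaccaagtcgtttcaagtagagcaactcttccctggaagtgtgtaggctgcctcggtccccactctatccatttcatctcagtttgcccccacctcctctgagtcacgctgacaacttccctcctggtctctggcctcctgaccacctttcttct
Itga4, chr2:79255176-79255425, plus strand: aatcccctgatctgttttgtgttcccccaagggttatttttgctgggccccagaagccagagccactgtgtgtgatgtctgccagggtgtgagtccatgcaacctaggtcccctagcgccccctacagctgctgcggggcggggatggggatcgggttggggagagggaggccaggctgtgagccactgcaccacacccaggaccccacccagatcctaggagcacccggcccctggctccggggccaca

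The *Itgam* window held 2 GAGGAA matches, starting 84 and 15 bases before the start, the latter on the other strand. The *Itgax* and *Itga4* windows held none. Of the other windows, *Itgav* held 2 matches, *Itga5* and *Itgb1* 1 each, and *Itgb5* none. Of 32851 promoter windows of the same length, 23.3% held the motif on either strand. The letters ACGTG, the core of the hypoxia response element, were in none of the 7 windows and in 16.6% of all windows, and the GC box GGGCGG was in the windows of *Itgam*, *Itga4*, *Itga5*, *Itgb1* and *Itgb5* and in 32.7% of all. A match is a description of letters and not of a bound site.

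In build GRCm38, the assembly also named mm10, *Itgam* lies at chr7:128062640-128118491, *Itgax* 11055 bases further on at chr7:128129547-128150657, and *Itgal* on the same chromosome at chr7:127296260-127335138. *Itgb2* lies at chr10:77530252-77565708 and *Itgb1* at chr8:128685654-128733200. *Itga4* (chr2:79255426-79333123), *Itga6* (chr2:71745616-71858416) and *Itgav* (chr2:83724397-83806916) share chromosome 2. *Itga5* lies at chr15:103344286-103366763 and *Itgb5* at chr16:33829665-33949338. *Itga5* is on the minus strand and the others are on the plus strand. The principal transcript of each alpha chain has 26 to 31 exons, and that of each beta chain 15 or 16.

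Signal is the deposited unit, an estimated read count divided by a scale factor per library. Estimated depth was 19046372 to 24491302 reads per library, and the 10 members together took 0.357% to 0.390% of the signal. The reads carry no molecular identifiers, so errors given as counting error cover counting only. *Itgal*, the lowest member, had an estimated 250 reads in its lowest library (counting error 6.32%), and the others at least 1141 reads (2.96%). On the first principal component of 10794 genes with a mean of at least 100, which carried 43.3% of the variance, ND replicates 1 and 2 scored -14.0 and -13.5. HFD replicate 1 scored 1.33, ND replicate 3 scored 3.43, and HFD replicates 2 and 3 scored 11.3 and 11.4. ND replicate 3 thus stood apart from its diet and among the HFD libraries, and results below that rest on it are given with and without it.

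The culture was checked against cell type markers. All 7 macrophage markers were listed, with *Lyz2* at 216365 to 267532 and *Csf1r*, the M-CSF receptor, at 44323 to 55142. Among them *Cd14*, a receptor for lipopolysaccharide, was lower in HFD without overlap, at 3969 to 4019 in ND and 2981 to 3678 in HFD (log2 difference -0.29, limma adjusted p 0.281, and 0.0153 with array weights). *Adgre1*, which encodes F4/80, was higher in HFD without overlap (0.16, limma adjusted p 0.520), and the diets overlapped for the other 5. Over all genes the diets did not overlap for 14.5%. Of the dendritic cell, T cell, NK cell, erythroid and mast cell markers none was listed, among them the 8 for dendritic cells, another cell type known for *Itgax*. The filter applied before deposit is not given, so a gene that is not listed is not shown to be absent. For neutrophils 5 of 10 markers were listed, with a summed signal of 1269 to 1993 in ND and 1276 to 2398 in HFD, and *Ly6g*, *Elane* and *Mpo* were not. For stroma 3 collagens of 6 markers were listed, with a sum of 177 to 549 in ND and 51.8 to 337 in HFD. The log2 differences were -1.33 for *Col1a1*, -1.04 for *Col1a2* and -1.45 for *Col3a1*, the largest among the listed markers, with overlap and limma adjusted p of 0.448 to 0.589 (unadjusted p 0.0423 for *Col1a1*). Without HFD replicate 2 the diets did not overlap for these 3 genes, as for 2493 of all 13232 genes. Their log2 differences shrank to between -0.81 and -0.45 without HFD replicate 3, and to between -0.72 and -0.44 with array weights. The sum for the megakaryocyte markers *Pf4* and *Gp1ba* was 617 to 1347 in ND and 1464 to 1946 in HFD, while *Ppbp* and *Gp9* were not listed. The sum was almost all *Pf4*. For *Gp1ba* the diets overlapped, at 48.4 to 50.9 in ND and 42.7 to 66.6 in HFD (log2 difference 0.17, limma adjusted p 0.824). The B cell marker *Ighm* was at 1889 to 3061 in ND and 1876 to 2075 in HFD, and *Kdr*, the one listed of 5 endothelial markers, at 119 to 172 in ND and 74.4 to 119.9 in HFD. Both had an unadjusted p under 0.05 as lower in HFD, and both passed the adjusted threshold with array weights (limma adjusted p 0.0149 and 0.0428). In bulk RNA, fewer cells of a type and less RNA per cell cannot be told apart.

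Levels were compared between genes per kb of the principal transcript. *Itgb2* was highest, at 5873 to 8214 per kb over the 6 libraries. *Itgam* (3936 to 4267 per kb) and *Itgb1* (3962 to 4189 per kb) followed, and their ranges overlapped. A lower tier held *Itgb5* (1152 to 1420 per kb), *Itga6* (1010 to 1187 per kb) and *Itga4* (877 to 1206 per kb), whose ranges overlapped from each to the next. *Itgav* was at 563 to 680.03 per kb, *Itgax* at 281 to 759 per kb and *Itga5* at 348 to 478 per kb, again with overlap from each to the next. *Itgal* was lowest and apart, at 46.3 to 102 per kb. The order depends on whether untranslated regions are counted. Per coding kb of the same transcripts, which leaves them out, *Itgb1* (6314 to 6676) stood above *Itgam* (5289.9 to 5735) without overlap, and *Itga4* (2768 to 3806) came next.

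**Figure D1:**
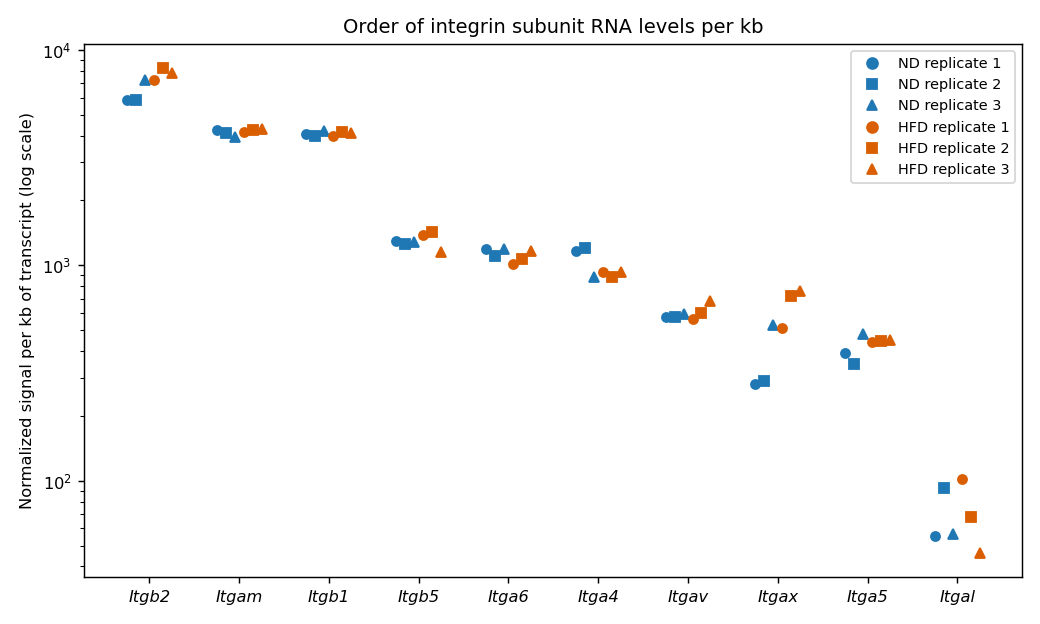
Normalized signal per kb of principal transcript (log axis) for the 10 integrin subunit genes, ordered by their mean over 6 libraries, with 1 point per library (blue ND, orange HFD). *Itgb2* lies on top at 5873 to 8214 per kb and *Itgal* at the bottom at 46.3 to 102 per kb, and the *Itgax* points spread from 281 to 759 per kb.

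The comparison of diets asks what the diet of the donor mouse changes in cultured macrophages at low oxygen. Among the beta2 genes, the means of *Itgax* and *Itgb2* were higher in HFD, though neither passed the adjusted threshold with all 6 libraries. *Itgam* was level, and the interval of *Itgal*, -0.57 to 0.65, was wide in both directions. Of the beta1 and alphav genes, *Itga4* had the largest difference, -0.23 with an interval that includes 0, and *Itga5* the next, 0.15. None of the 10 members passed an adjusted p of 0.05 in limma with Benjamini-Hochberg adjustment over all genes, and none of the 13232 genes did (0%). At an unadjusted p under 0.05, 2 members were called, *Itgax* and *Itgb2*, both higher in HFD, against 10.6% of all genes. The diets did not overlap for 1 member, *Itgb2*, against 14.5% of all genes. The median log2 difference (HFD minus ND) of the members was 0.05 (0.030 without ND replicate 3, 0.085 without HFD replicate 3), beside -0.0034 for all genes, and 7 of 10 were above 0, against 48.9% of all genes. Of these 7, *Itgal*, *Itgav* and *Itgb5* turned below 0 when a single library was left out. Without ND replicate 3, 3 members passed the adjusted threshold (*Itgax*, *Itgb2* and *Itga4*), against 1.76% of all genes, and 4 did not overlap (these and *Itga5*), against 35.9% of all genes. With limma array weights, which give noisier libraries less weight (1.91, 0.891 and 0.441 for ND and 0.778, 3.09 and 0.556 for HFD replicates 1 to 3), the same 3 passed, against 8.56% of all genes. ND replicate 3 had the lowest weight, so this fit is not independent of the one that leaves it out.

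**Figure D2:**
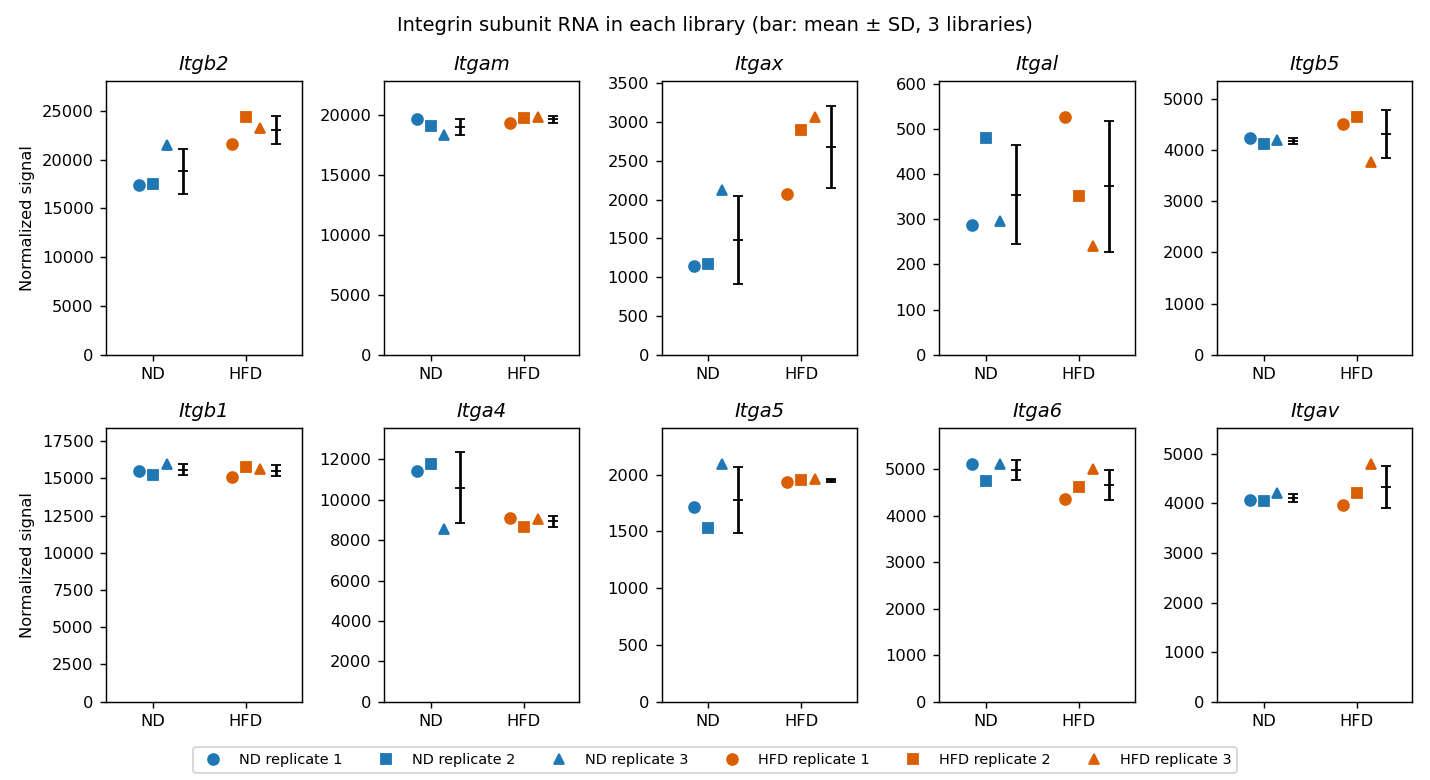
Normalized signal of each member in each library (blue ND, orange HFD; circle, square and triangle are replicates 1, 2 and 3), with the mean ± SD of 3 libraries in black and each axis starting at 0. *Itgax* and *Itgb2* are lowest in ND replicates 1 and 2, and ND replicate 3 lies beside HFD replicate 1 for both, while *Itgam* and *Itgb1* are level across the libraries.

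*Itgb2* encodes CD18, without which the beta2 alpha chains do not reach the cell surface. Its signal was 17444, 17453 and 21485 in ND replicates 1 to 3, against 21576, 24396 and 23214 in HFD replicates 1 to 3. The means were 18794 ± 2331 in ND and 23062 ± 1416 in HFD (SD, n = 3 each), 22.7% higher in HFD. The diets did not overlap, but the gap between ND replicate 3 and HFD replicate 1 was only 0.435% of the gene's mean, less than the counting error of 1 library (0.756% in the lowest), and after quantile normalization they overlapped. The log2 difference was 0.30 (SE 0.095, 95% interval 0.089 to 0.51), with a limma unadjusted p of 0.0103 and an adjusted p of 0.319. Without ND replicate 3 it was 0.40 (limma adjusted p 0.0322). The difference was above 0 in each of the 16 fits run, between 0.23 and 0.40, and the limma adjusted p ran from 0.0123 to 0.928.

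*Itgax* encodes CD11c, the alpha chain of complement receptor CR4, which is found on dendritic cells and on some tissue macrophages, among them those of fat tissue. It had 1138.5, 1172 and 2131 in ND replicates 1 to 3, against 2072, 2899 and 3071 in HFD replicates 1 to 3. ND replicates 1 and 2 were low, ND replicate 3 and HFD replicate 1 were close together, and the other HFD replicates were high, so the diets overlapped by the one pair. The means were 1481 ± 564 in ND and 2681 ± 534 in HFD (SD, n = 3 each), a ratio of 1.81. The log2 difference was 0.90 (SE 0.23, 95% interval 0.39 to 1.41), the largest among the members, with a limma unadjusted p of 0.00296 and an adjusted p of 0.270. Without ND replicate 3 it was 1.19 with no overlap (limma adjusted p 0.0127), and with array weights 1.14 (limma adjusted p 0.0063). It lay between 0.74 and 1.19 in the 16 fits, with limma adjusted p-values from 0.0063 to 0.879.

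The libraries stood in the same order for *Itgax* as on the first principal component: ND replicates 1 and 2, HFD replicate 1, ND replicate 3, HFD replicates 2 and 3. The 2 listed megakaryocyte markers differed in how they stood beside *Itgax*. *Pf4* was at 566, 967 and 1299 in ND and 1506, 1886 and 1421 in HFD replicates 1 to 3. *Gp1ba* was at 50.9, 48.9 and 48.4 in ND and 66.6, 60.8 and 42.7 in HFD. It was lowest in HFD replicate 3, where *Itgax* was highest. The *Pf4* difference was 0.83 (limma adjusted p 0.301) and 1.10 without ND replicate 3 (limma adjusted p 0.0340). The summed neutrophil markers were highest in HFD replicate 2 (2398) and ND replicate 2 (1993), where *Itgax* was 2899 and 1172. The 8 dendritic cell markers (*Flt3*, *Zbtb46*, *Dpp4*, *Ccr7*, *Cd209a*, *Xcr1*, *Clec9a*, *Siglech*) were not listed in the table. The part of *Pf4*-expressing cells or of dendritic cells in the result was not tested.

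*Itgam* encodes CD11b, the alpha chain of Mac-1. Its signal was 19636, 19089 and 18298 in ND replicates 1 to 3, against 19311, 19729 and 19839 in HFD replicates 1 to 3. The highest library exceeded the lowest by a factor of 1.08, and the diets overlapped. The log2 difference was 0.05 (SE 0.064, 95% interval -0.096 to 0.19, limma adjusted p 0.843). It was 0.0058 after quantile normalization, 0.020 with ND replicate 3 left out and 0.070 with ND replicate 1 left out. Whether *Itgam* differed from *Itgax* or *Itgb2* in its response to diet was not tested.

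*Itgal* encodes CD11a, the alpha chain of LFA-1, the lymphocyte integrin for ICAM-1. It had 286, 481 and 295 in ND replicates 1 to 3, against 528, 351 and 241 in HFD replicates 1 to 3. ND replicate 2 and HFD replicate 1 were the high libraries, so the spread lay within each diet. In limma the log2 difference was 0.04 (SE 0.27, 95% interval -0.57 to 0.65, limma adjusted p 0.973), an interval too wide to leave out a difference as large as that of *Itgb2* in either direction. It turned to -0.24 without HFD replicate 1, -0.087 without ND replicate 1 and -0.066 without ND replicate 3.

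As alpha and beta chains pair one to one, the RNA ratios per kb of transcript show how the balance of partners varied. *Itgam*, *Itgal* and *Itgax* together stood to *Itgb2* as 0.776, 0.764 and 0.625 in ND replicates 1 to 3, against 0.656, 0.612 and 0.649 in HFD replicates 1 to 3. There was less alpha than beta RNA per kb in each library, and ND replicate 3 again lay within the HFD values. *Itgam* to *Itgb2* was 0.719, 0.699 and 0.544 in ND and 0.572, 0.517 and 0.546 in HFD replicates 1 to 3, and *Itgax* to *Itgb2* was 0.0479, 0.0493 and 0.0728 in ND and 0.0705, 0.0872 and 0.0971 in HFD. For both ratios the diets overlapped through ND replicate 3, and without it they did not. *Itgax* made up 6.17%, 6.46% and 11.7% of the *Itgam*, *Itgal* and *Itgax* RNA in ND replicates 1 to 3, against 10.7%, 14.3% and 14.96% in HFD replicates 1 to 3. ND libraries averaged 8.09% ± 3.09 and HFD libraries 13.3% ± 2.26 (SD, n = 3 each), with 6.31% in ND without replicate 3. The ratios and shares are given as a description, without a test. *Itgad*, the other alpha chain that pairs with *Itgb2*, was not listed in the table.

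**Figure D3:**
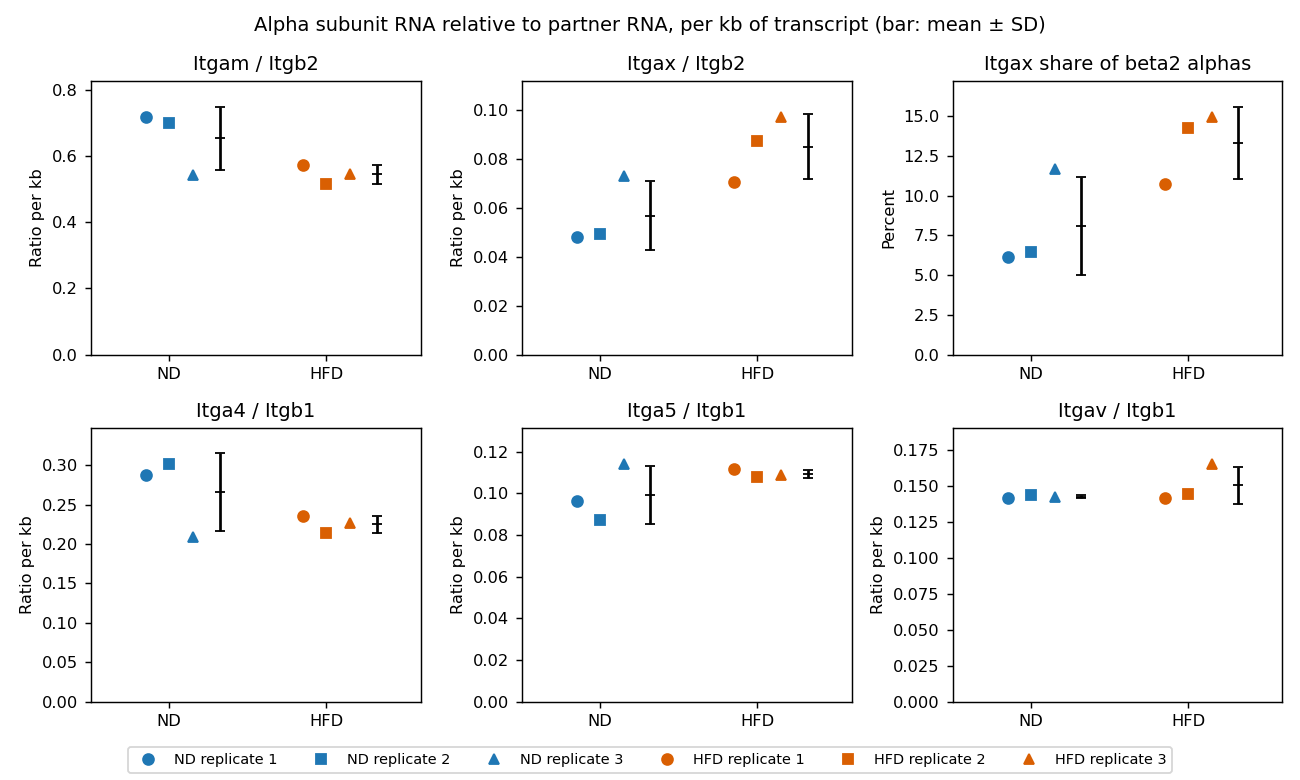
Ratios of alpha to beta subunit RNA per kb of transcript, and the share of *Itgax* in the *Itgam*, *Itgal* and *Itgax* RNA, in each library (symbols as for the member levels; mean ± SD of 3 libraries in black). *Itgam* to *Itgb2* is 0.699 to 0.719 in ND replicates 1 and 2 and 0.517 to 0.572 in the other libraries, ND replicate 3 included, and *Itgav* to *Itgb1* stands out in HFD replicate 3 at 0.166.

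*Itgb1* encodes the beta1 chain, the most widely shared integrin partner. It was the steadiest member, at 15493, 15248 and 15982 in ND replicates 1 to 3, against 15116, 15781 and 15663 in HFD replicates 1 to 3. The within-diet SD of its log2 values was 0.034, against 0.12 at the median gene. The log2 difference was -0.0050 (SE 0.061, 95% interval -0.14 to 0.13, limma adjusted p 0.985). Its sign turned without ND replicate 3 or HFD replicate 1 (0.014 each) and with array weights (0.015).

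*Itga4* encodes the alpha4 chain of VLA-4, the receptor for VCAM-1 and fibronectin that brings monocytes out of the blood. It had 11409, 11783 and 8569.9 in ND replicates 1 to 3, against 9097, 8635 and 9074 in HFD replicates 1 to 3. ND replicates 1 and 2 were high, and ND replicate 3 was the lowest of the 6 libraries. The coefficient of variation was 2.91% over the HFD libraries and 16.6% over the ND libraries. The log2 difference was -0.23 (SE 0.11, 95% interval -0.48 to 0.016), with a limma unadjusted p of 0.0636 and an adjusted p of 0.509. Without ND replicate 3 it was -0.38 with no overlap (limma adjusted p 0.0208), and with array weights -0.34 (limma adjusted p 0.0278). It was -0.15 without ND replicate 2 and stayed below 0 in each of the 16 fits, with limma adjusted p-values up to 0.956. The summed collagens of the stroma list were 308, 549 and 177 in ND and 125, 337 and 51.8 in HFD replicates 1 to 3, highest in ND replicate 2 and next highest in HFD replicate 2, where *Itga4* was low. *Ighm*, a B cell marker, was at 3061, 2891 and 1889 in ND and 2075, 1876 and 1886 in HFD, with ND replicate 3 down among the HFD libraries as for *Itga4*. Its log2 difference was -0.40 (limma adjusted p 0.410), -0.61 without ND replicate 3 (limma adjusted p 0.0115) and -0.56 with array weights (limma adjusted p 0.0149). The B cell markers *Cd79a*, *Cd79b* and *Ms4a1* were not listed, and the part of these markers in the result was not tested.

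*Itga5* encodes the alpha5 chain of the classic fibronectin receptor. It had 1710.3, 1526 and 2095 in ND replicates 1 to 3, against 1936, 1953 and 1961 in HFD replicates 1 to 3. Here ND replicate 3 was the highest library and ND replicate 2 the lowest. In limma the log2 difference was 0.15 (SE 0.10, 95% interval -0.082 to 0.37, limma adjusted p 0.660). Without ND replicate 3 it was 0.27 with no overlap (limma adjusted p 0.0877), and without ND replicate 2 it was 0.043.

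*Itga6* encodes the alpha6 chain of laminin receptors. It had 5114, 4739 and 5113 in ND replicates 1 to 3, against 4355, 4605 and 4999 in HFD replicates 1 to 3. HFD replicate 1 was the lowest library and the diets overlapped. In limma the log2 difference was -0.10 (SE 0.069, 95% interval -0.26 to 0.053, limma adjusted p 0.654), with -0.15 if HFD replicate 3 is left out and -0.055 if HFD replicate 1 is left out.

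*Itgav* encodes the alphav chain, which pairs with *Itgb1*, *Itgb3*, *Itgb5* and *Itgb8* and binds vitronectin and latent TGF-beta. It had 4061, 4056 and 4205 in ND replicates 1 to 3, against 3969.5, 4216 and 4797 in HFD replicates 1 to 3. HFD replicate 3 was the high library. In limma the log2 difference was 0.07 (SE 0.075, 95% interval -0.097 to 0.24, limma adjusted p 0.787), and it was -0.0054 without HFD replicate 3 and 0.13 without HFD replicate 1.

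*Itgb5* encodes the beta5 chain, which with alphav binds the bridging protein MFG-E8 on dying cells. It had 4240.2, 4124 and 4201 in ND replicates 1 to 3, against 4513, 4659 and 3782 in HFD replicates 1 to 3. HFD replicate 3 was the lowest library for this gene, where *Itgav* was at its highest. *Itgav* to *Itgb5* per kb was accordingly 0.446 to 0.466 in ND, 0.409 and 0.421 in HFD replicates 1 and 2, and 0.590 in HFD replicate 3. The log2 difference of *Itgb5* was 0.04 (SE 0.081, 95% interval -0.14 to 0.22, limma adjusted p 0.904), and it was -0.020 without HFD replicate 2 and 0.13 without HFD replicate 3.

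Within the alpha chains that pair with *Itgb1*, *Itga4* made up 35.2%, 37.4% and 28.0% of the *Itga4*, *Itga5*, *Itga6* and *Itgav* RNA per kb in ND replicates 1 to 3, against 31.6%, 29.5% and 28.9% in HFD. *Itga5* made up 11.8%, 10.8% and 15.2% in ND and 14.997%, 14.9% and 13.9% in HFD. The 2 shares were opposite in ND: replicate 3 had the least *Itga4* and the most *Itga5*. *Itga6* held 34.0% to 37.8% in ND and 34.3% to 36.1% in HFD. *Itgav* held 17.3%, 17.8% and 19.0% in ND and 19.1%, 20.0% and 21.1% in HFD replicates 1 to 3, without overlap but with ND replicate 3 next to HFD replicate 1, and per coding kb the diets overlapped (18.2% to 21.1% in ND, 20.5% to 23.1% in HFD). The balance of *Itga4* and *Itga6* depends on the length used: per coding kb *Itga4* held 43.5% to 53.9% and *Itga6* 20.9% to 24.97% in ND, and 44.2% to 47.6% and 21.9% to 23.4% in HFD.

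Across the 6 libraries, log2 values of *Itgax* and *Itgb2* went together (Pearson r = 0.99), as did those of *Itga4* and *Itga5* in opposite directions (r = -0.95), *Itgb2* and *Itga4* (r = -0.93) and *Itgax* and *Itga4* (r = -0.91). These are descriptions over 6 libraries, 3 per diet, and the values of a library share its depth and scale factor. Of the other 13231 genes, those closest to *Itgax* were *Ccr1*, *Ywhaz* and *Rnf128* (r of 0.999, 0.999 and 0.998). *Ccr1*, a chemokine receptor, had 431, 449 and 776 in ND replicates 1 to 3, against 749.8, 982 and 1078 in HFD.

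Some members share sequence with other genes, so that the authors' counting could split their reads. *Gm49368*, a gene model that overlaps *Itgam* on the same strand, holds 73.8% of the 75-base stretches of the *Itgam* transcript, and was listed at 7.78 to 48.5, which is 0.0408% to 0.244% of the 2 together. *Gm29397* shares 5.95% of *Itga6* and took 4.99% to 6.08% of the sum, and *Gm38317* shares 7.45% of *Itgb5* and took 7.51% to 8.86%. Summed with these, the log2 differences were 0.05 for *Itgam*, -0.095 for *Itga6* and 0.04 for *Itgb5*. *Itgax* shares 6.04% of its stretches with *Itgad* and *Itga4* 10.1% with *Cerkl* on the opposite strand, and neither of these was listed. *Itgb2* shares 0.242% with *Gm14699*, and *Itgal*, *Itga5*, *Itgav* and *Itgb1* share none.

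Of the 16 other integrin subunit genes, 6 were listed. None passed the adjusted threshold in limma, 2 had an unadjusted p under 0.05, 1 in each direction, and the diets did not overlap for these 2, against 10.6% and 14.5% of all genes. *Itgb3*, the beta3 partner of alphav in the vitronectin receptor, was at 573, 598 and 548 in ND replicates 1 to 3, against 468, 507 and 471 in HFD (log2 difference -0.25, SE 0.076, limma adjusted p 0.318). *Itgb8*, the alphav partner that activates latent TGF-beta, was at 41.9, 49.9 and 62.6 in ND and 72.4, 84.9 and 78.1 in HFD (log2 difference 0.62, SE 0.19, limma adjusted p 0.319, and 0.0191 with array weights). *Itgb8* had a difference of 0.76 without ND replicate 3 (limma adjusted p 0.0903). These 2 partners of alphav thus stood on opposite sides, *Itgb8* with HFD and *Itgb3* with ND. *Itga1*, *Itga8*, *Itga9* and *Itgb7* had log2 differences from -0.060 to 0.086 and overlapping diets. *Itga9*, at 269 to 408 in ND and 252 to 426 in HFD, was highest in HFD replicate 1 and ND replicate 2, the high libraries of *Itgal*.

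**Figure D4:**
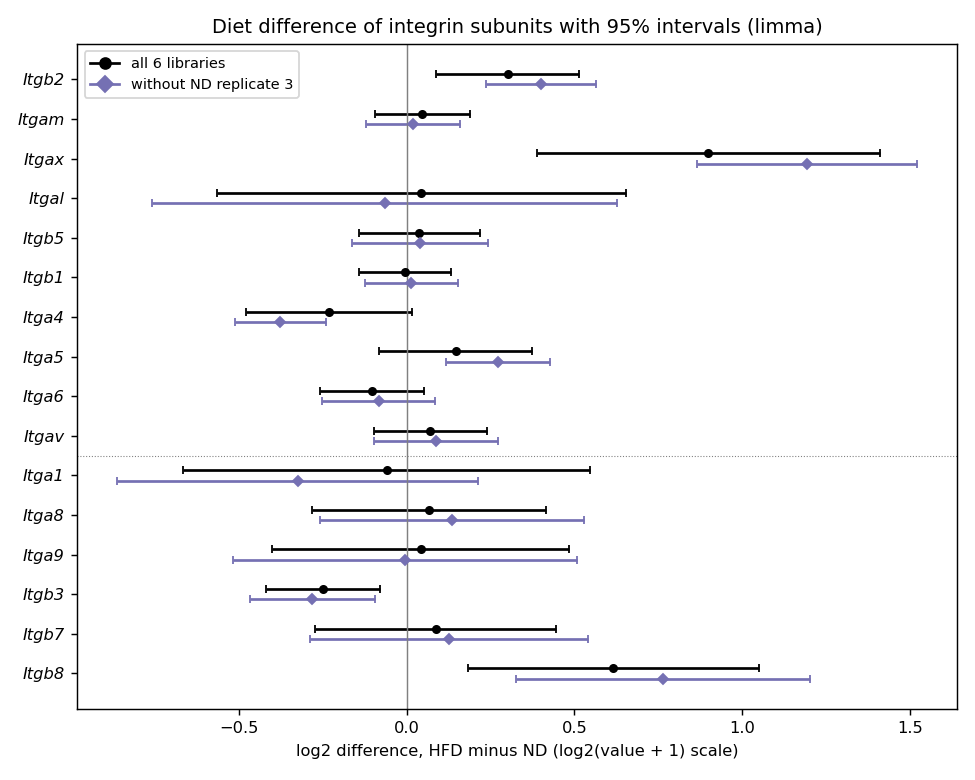
Log2 difference (HFD minus ND) with its 95% interval from limma for the 10 members (above the dotted line) and 6 other integrin subunits, with all 6 libraries (black circles) and without ND replicate 3 (violet diamonds). With all libraries the intervals of *Itgb2*, *Itgax*, *Itgb3* and *Itgb8* lie on one side of 0, and without ND replicate 3 those of *Itga4* and *Itga5* do as well.

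Of 35 genes that activate integrins or link them to actin and to kinases, 29 were listed. None passed the adjusted threshold, 6 were higher and 1 lower in HFD at an unadjusted p under 0.05, against 5.4% and 5.18% of all genes. The median log2 difference was 0.04, beside -0.0034 for all genes. The 3 smallest p belonged to *Fgr*, *Src* and *Actn1*. *Fgr*, a Src family kinase of myeloid cells, was at 60.9, 72.4 and 69.7 in ND and 113, 160.2 and 104 in HFD replicates 1 to 3 (log2 difference 0.86, SE 0.18, limma adjusted p 0.197), and *Src* was at 75.8, 98.8 and 119 in ND and 129, 196 and 162 in HFD (0.73, SE 0.20, limma adjusted p 0.284). For both kinases each HFD library exceeded each ND library, but they were named for their small p. In the list the diets did not overlap for 6 of 29 genes, against 14.5% of all genes. ND replicate 3 was the highest ND library for *Src*, and without it the difference was 0.88 (limma adjusted p 0.0663). *Actn1*, the actin crosslinker alpha-actinin, had a log2 difference of 0.36 with overlap (limma adjusted p 0.319), and 0.45 without ND replicate 3 and without overlap (limma adjusted p 0.0722). *Tln1* and *Fermt3*, named for their role as talin and kindlin of blood cells, had 0.16 and 0.03 with overlapping diets. With array weights 6 genes of this list passed as higher and 1 as lower, against 4.54% and 4.02% of all genes, and without ND replicate 3 none did.

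Of 25 integrin ligand genes, 12 were listed, and none passed the adjusted threshold. *Mfge8*, the ligand of alphav-beta5 that bridges to dying cells, was at 2369, 2235 and 2949.9 in ND replicates 1 to 3, against 3132, 3645 and 3243 in HFD (log2 difference 0.41, SE 0.10, limma adjusted p 0.267). Without ND replicate 3 it was 0.53 (limma adjusted p 0.0163), the one gene of the ligand list that passed there, against 1.76% of all genes. With array weights *Mfge8* and *Edil3* passed as higher and *Spp1* as lower (limma adjusted p 0.0068, 0.0092 and 0.0160), against 8.56% of all genes. *Edil3*, a secreted ligand of alphav integrins related to *Mfge8*, was at 178, 214 and 182 in ND and 255, 289.5 and 288 in HFD (0.54, SE 0.11, limma adjusted p 0.189). For both of these genes each HFD library exceeded each ND library, but they were named for their small p, so this is no further evidence. In the list the diets did not overlap for 3 of 12 genes, against 14.5% of all genes. At an unadjusted p under 0.05, 2 were higher and 1 lower, against 5.4% and 5.18% of all genes. *Spp1*, osteopontin, was at 17939, 14609 and 15317 in ND and 11769, 11849 and 14709 in HFD (-0.32, SE 0.11, limma adjusted p 0.340), with overlap of ND replicate 2 and HFD replicate 3. The median of the list was 0.21 with all libraries, but between 0.049 and 0.093 without ND replicate 1, ND replicate 3, HFD replicate 1 or HFD replicate 2, so it depends on single libraries.

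All 10 membrane proteins known to associate with integrins were listed, none passed the adjusted threshold, and the median was 0.04 (0.018 without ND replicate 3, 0.084 without HFD replicate 3). The tetraspanin *Cd151*, a partner of laminin-binding integrins, was at 1082, 1094 and 1311 in ND and 1334, 1561 and 1378 in HFD replicates 1 to 3 (log2 difference 0.30, SE 0.093, limma adjusted p 0.319), and its difference was 0.38 without ND replicate 3 (limma adjusted p 0.0520). With array weights *Cd151* was the one gene of this list that passed (0.42, limma adjusted p 0.0123), against 8.56% of all genes. The tetraspanin *Cd81* was at 4051, 4112 and 4165 in ND and 3724, 3686 and 3399.7 in HFD (-0.19, SE 0.060, limma adjusted p 0.319). Neither tetraspanin had overlapping diets, which makes 2 of the 10 genes, against 14.5% of all genes. These 2 were also the ones with an unadjusted p under 0.05, 1 higher and 1 lower, against 5.4% and 5.18% of all genes. *Cd9*, another tetraspanin, had a difference of 0.23 with overlap (limma adjusted p 0.534).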

How the data were processed

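Stranded total RNA libraries, depleted of ribosomal RNA, were sequenced as single reads, per the labels' protocols. STAR, Partek and build mm10 are named in the submitters' processing notes; the counter, annotation and filters are not given in the sources used here. The deposited values are a signal: estimated gene counts over a scale factor that differs between libraries, as the numbers themselves show. From 5 to 1000, 57.1% to 58.4% of values lay within 0.02 reads of a whole multiple of the library's step, too few for a count test. NC in a column name was read as normal diet. Here log2(signal + 1) was compared between diets with limma 3.58.1 in R 4.3.3 (mean-variance trend, two-sided), with Benjamini-Hochberg adjustment over all 13232 genes, threshold 0.05, no filter, and 95% intervals; for low genes this scale understates the change. Standard errors (SE) are the moderated ones. The procedure was tested on simulated data. GENCODE M21 (GRCm38) gave positions, lengths (principal transcript) and shared sequence. Named genes were all members, other listed integrin subunits, the 3 smallest p of each further list and the genes most correlated with the member of smallest p. Members, lists and tests were chosen with earlier results of these data known. The results of some marker genes are not reported here.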

Additional observations from a re-analysis of the deposited data

How the results depend on the processing

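The count of genes with a limma adjusted p under 0.05 was 0 (1401 at an unadjusted p) and stayed at 0 under column-total scaling, quantile normalization, limma fitted with no trend, a pseudocount of 0.1, and filters at 10 in each library or at a mean of 100 (1144 to 1408 unadjusted). Array weights gave 1133 genes, 3 of them members and 12 of the related lists. Without 1 library the counts ran from 0 to 233 for all genes, from 0 to 3 for members and from 0 to 1 for the related lists, each highest without ND replicate 3. The replicate block gave 31 genes, 1 of them a member (*Itgax*, 0.90, limma adjusted p 0.0477). For that pairing, the correlation of deviations from the diet means was -0.0086, -0.037 and -0.00069 for replicates 1, 2 and 3, while every library correlated best with a differently numbered one (0.113 to 0.150), so the libraries were treated as unpaired by number. Over 25 named genes, 129 of 150 values without 1 library and 208 of 222 under other settings kept direction and call. Direction turned with array weights for *Itgb1* (0.015) and *Itga8* (-0.022). Without 1 library it turned for *Itgal* (-0.24 to 0.32), *Itgav* (-0.0054 to 0.13), *Itgb1* (-0.020 to 0.014), *Itgb5* (-0.020 to 0.13), *Itga1* (-0.32 to 0.088), *Itga8* (-0.047 to 0.14), *Itga9* (-0.14 to 0.24) and *Itgb7* (-0.11 to 0.24). The cause was not tested. The *Itgax* share of its group moved by less than 1 SD with coding length or no length correction. Depth limits *Itgal* most among the members (counting error 6.32%), though its within-diet SD was 0.50 on the log2 scale.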
